A study of Bos taurus with 55 samples.

Results

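The genes described are those of vesicle coats and SNARE proteins in the lactating bovine mammary gland, chosen by gene symbol: symbols that begin with SEC or ARF and a digit, COPA, COPB, COPE, COPG or COPZ, STX and a digit, VAMP, TMED or TRAPPC. Of 53 genes on the array with such a symbol, 1 was left out by the rule, which gave 52 genes among 6636 with a symbol. Mid-lactation mammary tissue of 28 Holstein-Friesian cows was measured on Affymetrix arrays. For 23 days (period I) 7 cows each ate a diet with 2.7% of rapeseed oil, soybean oil, linseed oil or a mix of these in equal parts. For the next 28 days (period II) all ate the control diet with no oil added. All cows grazed by day and ate a mixed ration of corn silage, grass silage and concentrate indoors at night. The same animals were sampled when a period closed (days in milk averaged 176 for period I and 204 for period II), except that 1 cow on linseed oil has no period II array here. The oil always came first, so diet, order and stage of lactation cannot be told apart.

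Milk proteins enter the endoplasmic reticulum (ER) through the SEC61 channel, where signal peptidase removes their leader. COPII vesicles carry them to the Golgi, COPI vesicles return proteins to the ER, and small GTPases of the ARF family load the COPI coat. The TRAPP complexes help vesicles to tether, and SNARE proteins (syntaxins, VAMPs and SEC22B) then fuse them with the next membrane. In the mammary epithelium this route delivers caseins and whey proteins to the apical surface. In a biopsy, fewer cells of a type and less RNA per cell cannot be told apart.

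The 55 arrays had median intensities from 9.47 to 12.1. Milk protein genes were bright on every array: CSN1S1, an alpha casein gene, lay between 11.9 and 13.4 log2 units, and PAEP, the gene of the whey protein beta-lactoglobulin, between 12.9 and 14.4. On 7 arrays, from 6 cows (period I of cows 5, 10 and 12, period II of cows 1, 2, 5 and 15), the mean correlation with the other arrays was 0.911 to 0.951, against at least 0.962 for the other 48. These are called the arrays apart, and the comparisons were repeated without the 6 cows. The array names carry 2 prefixes: prefix 1 held 25 arrays of period I and 2 of period II (cows 1 and 2, both apart), and prefix 2 held 3 and 25. A running number in the array name was larger by 28 on each cow's control array.

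Oil and control periods of the same cow were compared first. Of the 52 genes, 9 rose and 6 fell in the oil period (limma, adjusted p under 0.05 over 10680 probe sets), which is 28.8%. Over all probe sets 34.4% were called, 18.8% higher and 15.6% lower, so trafficking genes were not called more often than the array as a whole. The median change was 0.08 log2 units for the 52 genes and 0.03 for all probe sets. Only ARF3 changed more than 1.5-fold. The largest rises were in SEC22B, COPB2, TRAPPC2, STX8 and SEC22A, and the largest falls in ARF3, TRAPPC2L, STX5, COPG1 and ARF5. Members of 1 complex went both ways in the COPI coat and in TRAPP. With each array centred on its median, 14 rose and 5 fell. Centring raised the change of every probe set alike (median change before minus after, -0.06 log2 units). The share of all probe sets then called was not taken. Without the 6 cows with an array apart, 13 rose and 6 fell, where 34.9% of all probe sets were called, and 13 of these 19 were among the 15. For none of the 52 did the levels of the periods separate completely, and the share over all probe sets was not counted.

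**Figure D1:**
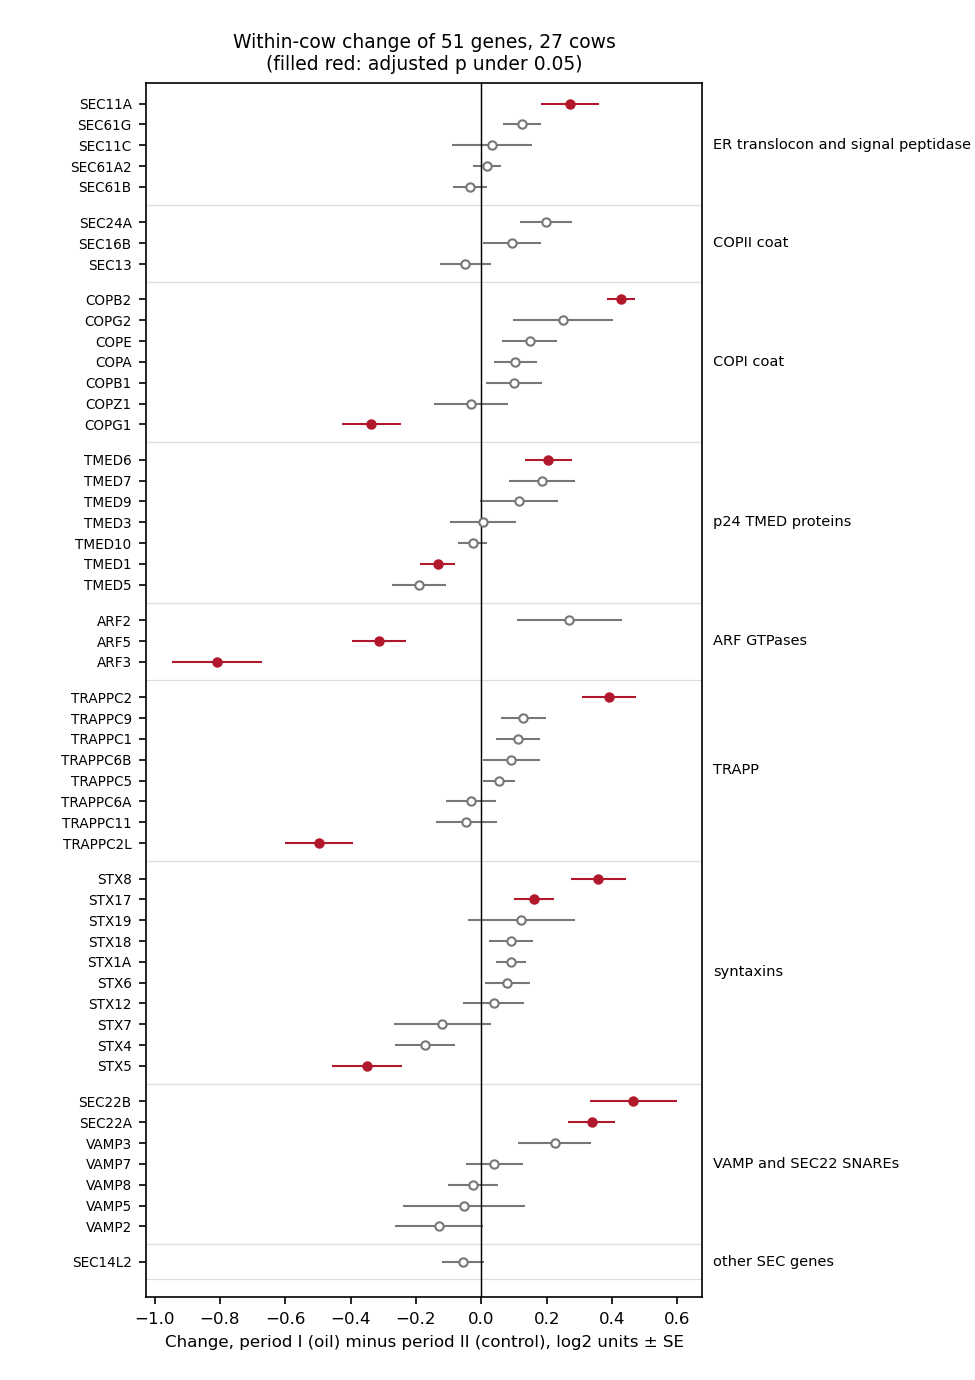
Change of 51 of the 52 genes, on the horizontal axis in log2 units (period I minus period II ± SE, 27 cows), with genes grouped by role down the page. Filled red points passed the test: 8 lie right of 0 and 6 lie left of 0, with ARF3 farthest left at -0.81.

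COPB2 encodes the beta-prime subunit of the COPI outer coat and had the most uniform change of the set. Its level had a minimum of 8.83, a median of 9.05 and a maximum of 9.42 in the oil period, against 8.36, 8.66 and 9.02 in the control period (log2 intensity). The ranges overlapped, but in each cow the oil period was higher. The rise was 0.43 ± 0.04 (SE, 27 cows), or 1.35-fold, with an adjusted p of 6.43e-08 (limma), and the smallest rise in any cow was 0.07. It ranked at position 9 of 10680 probe sets by p, and 12 probe sets in all were higher in 27 of 27 cows.

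COPG1, a gamma subunit of the COPI inner coat that contacts cargo, fell by 0.34 ± 0.09 (adjusted p = 0.00473, lower in 20 of 27 cows). Its lowest, median and highest levels were 6.32, 7.05 and 7.68 in the oil period and 6.41, 7.32 and 8.08 in the control period. The ranges overlapped almost entirely. COPG1 also differed along the running array number, which within each period has the same order as the cow number. In period I it lay between 6.32 and 7.05 on the first 13 arrays and between 6.73 and 7.68 on the other 15. In period II it lay between 6.41 and 7.61 on the first 13 arrays (29 to 41) and between 7.05 and 8.08 on the other 14 (these divisions were chosen after the values were seen). The first 13 arrays of both periods came from the same cows, so array order and differences between cows cannot be told apart here. The part of array order in the fall was not tested. In the fit with array number given below, which hardly separates period from order, the COPG1 change was 0.59 (limma, adjusted p = 0.0352).

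The other 5 COPI genes did not pass the test. COPE, the epsilon subunit that pairs with the alpha subunit, had lowest, median and highest levels of 7.70, 8.39 and 8.90 in the oil period and 6.65, 8.28 and 8.63 in the control period, a change of 0.15 ± 0.08 (adjusted p = 0.175). The change was 0.10 ± 0.07 for COPA, the alpha subunit, and 0.10 ± 0.09 for COPB1, the beta subunit. It was 0.25 ± 0.15 for the dim COPG2, the second gamma subunit, and -0.03 ± 0.11 for COPZ1, the zeta subunit. In single cows the change of COPG2 ran from -1.41 (cow 1) to 2.56 (cow 12) and that of COPZ1 from -1.08 (cow 11) to 1.92 (cow 5). Of these, cows 1, 5 and 12 had an array apart. The change ran from -0.65 to 0.92 for COPA, -0.73 to 1.03 for COPB1 and -0.75 to 1.21 for COPE, against 0.07 to 0.83 for COPB2.

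**Figure D2:**
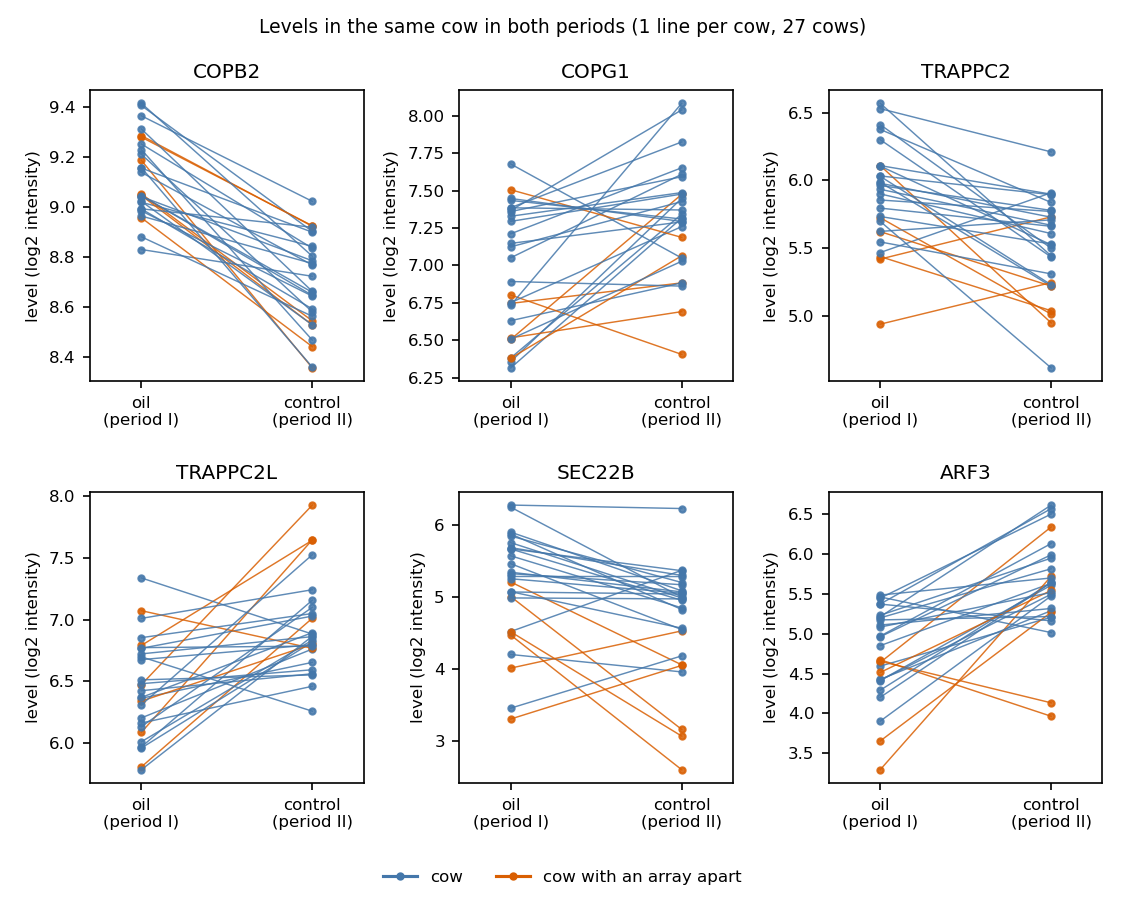
Levels (log2 intensity, vertical axis) of 6 genes in the oil period (left) and the control period (right), 1 line per cow; orange lines are the 6 cows with an array apart. COPB2 is higher on the oil side in all 27 cows, TRAPPC2 and SEC22B in 23 each, while COPG1, TRAPPC2L and ARF3 are lower on the oil side in 20, 24 and 23.

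Of 3 measured ARF GTPases 2 fell in the oil period. ARF3, a class I ARF of the Golgi that recruits coats, had lowest, median and highest levels of 3.29, 4.85 and 5.49 in the oil period and 3.96, 5.61 and 6.62 in the control period. It fell by 0.81 ± 0.14, or 1.75-fold, in 23 of 27 cows (adjusted p = 6.19e-05). ARF5, a class II ARF, fell by 0.31 ± 0.08 (adjusted p = 0.00442, 23 of 27 cows), with a dim signal of 1.35, 1.90 and 2.78 in the oil period and 1.86, 2.13 and 3.28 in the control period. The third, ARF2, went the other way without passing the test. Its levels were 6.12, 7.19 and 8.62 in the oil period and 6.12, 6.73 and 9.13 in the control period, with a change of 0.27 ± 0.16 (adjusted p = 0.198). When those 6 cows were left out, ARF2 was higher by 0.42 and passed (adjusted p = 0.00328).

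In the ER, 1 of 5 genes of the channel and of signal peptidase rose and none fell. SEC11A, a catalytic subunit of signal peptidase, rose by 0.27 ± 0.09 (adjusted p = 0.0184, higher in 20 of 27 cows). Its lowest, median and highest levels were 7.31, 7.78 and 8.86 in the oil period and 6.63, 7.62 and 8.61 in the control period, and the highest levels of each period were those of arrays apart. SEC11C, the alternative catalytic subunit, had a change of 0.03 ± 0.12 (adjusted p = 0.864). In single cows that change ran from -2.11 (cow 12) to 1.37 (cow 1), both with an array apart. SEC61G, the small gamma subunit of the channel, was at 10.7, 11.0 and 11.3 in the oil period and 10.4, 10.9 and 11.7 in the control period. It was higher in 22 of 27 cows, by 0.12 ± 0.06, without passing the test (adjusted p = 0.0957), and passed without the 6 cows (0.15, adjusted p = 0.0254). SEC61B, the beta subunit, was at 7.97, 8.53 and 8.95 against 8.14, 8.54 and 8.99, a change of -0.03 ± 0.05. The dim SEC61A2, an isoform of the channel's pore, changed by 0.02 ± 0.04.

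None of the 3 COPII genes passed the test over all oils. SEC24A, which binds cargo in the COPII coat, had levels of 7.80, 8.54 and 8.98 in the oil period and 7.39, 8.37 and 8.71 in the control period (lowest, median, highest). Its change of 0.20 ± 0.08 missed the threshold (adjusted p = 0.0557), and without the 6 cows it was 0.22 and passed (adjusted p = 0.0147). SEC13, a part of the outer COPII cage that also serves in the nuclear pore, lay between 7.15 and 8.41 in the oil period and between 7.30 and 8.30 in the control period, and changed by -0.05 ± 0.08. SEC16B, a scaffold of ER exit sites, was dim, between 1.57 and 3.43 in the oil period and between 1.10 and 4.15 in the control period, with a change of 0.09 ± 0.09.

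Among 7 TMED genes, which encode p24 proteins that help to sort cargo between ER and Golgi, 1 rose and 1 fell, and both were dim. TMED6 rose by 0.21 ± 0.07 (adjusted p = 0.0243, 19 of 27 cows), with lowest, median and highest levels of 0.77, 1.46 and 2.38 in the oil period and 0.86, 1.28 and 1.92 in the control period. TMED1 fell by 0.13 ± 0.05, just within the threshold (adjusted p = 0.0484, 17 of 27 cows), with levels of 2.17, 2.69 and 3.14 in the oil period and 2.11, 2.86 and 3.53 in the control period. None of the 10 alternatives in which TMED1 was tested kept its call, and without the 6 cows it was -0.16 (adjusted p = 0.0564). Neither change exceeds the spread of the levels within a period. TMED5 was at 4.37, 5.21 and 5.59 in the oil period and 4.27, 5.34 and 5.95 in the control period, with a change of -0.19 ± 0.08 (adjusted p = 0.0722). TMED10 (-0.03 ± 0.04), TMED7 (0.19 ± 0.10), TMED9 (0.12 ± 0.12) and TMED3 (0.01 ± 0.10) did not pass.

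Of 8 TRAPP genes 1 rose and 1 fell, and these are close relatives. TRAPPC2, a core subunit of the tethering complex, had lowest, median and highest levels of 4.94, 5.94 and 6.57 in the oil period and 4.61, 5.53 and 6.21 in the control period, and rose by 0.39 ± 0.08 (adjusted p = 5.86e-04, 23 of 27 cows). Its relative TRAPPC2L had levels of 5.78, 6.42 and 7.34 in the oil period and 6.26, 6.86 and 7.93 in the control period, and fell by 0.50 ± 0.10 (adjusted p = 5.94e-04, 24 of 27 cows). Within each gene the ranges overlapped widely, and the change was seen within cows. TRAPPC9, a subunit of the TRAPPII form, was dim. It was at 1.92, 3.18 and 3.53 in the oil period and 2.27, 2.98 and 3.52 in the control period. Its change was 0.13 ± 0.07 (limma, adjusted p = 0.146). The remaining subunits TRAPPC1, TRAPPC5, TRAPPC6A, TRAPPC6B and TRAPPC11 had changes between -0.05 and 0.11.

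Of 11 syntaxins 3 rose and 1 fell. STX8, a SNARE of late endosomes, rose by 0.36 ± 0.08 (adjusted p = 0.00159, 21 of 27 cows), with lowest, median and highest levels of 6.47, 7.24 and 7.92 in the oil period and 5.95, 6.87 and 7.47 in the control period. STX5, the syntaxin of ER to Golgi transport, fell by 0.35 ± 0.11 (adjusted p = 0.0131, 19 of 27 cows), with levels of 3.33, 4.59 and 5.32 in the oil period and 4.21, 4.84 and 5.75 in the control period. STX17, which acts when autophagosomes fuse with lysosomes, was dim and lay between 2.50 and 3.32 in the oil period and between 2.36 and 3.43 in the control period. It rose by 0.16 ± 0.06 (adjusted p = 0.0390, 19 cows) and did not pass without the 6 cows (0.14, adjusted p = 0.114). STX7, which shares a late endosomal complex with STX8, changed by -0.12 ± 0.15. STX1A, STX4, STX6, STX12, STX18 and STX19 lay between -0.17 and 0.12, and of these STX1A, STX4, STX6 and STX18 were dim. None of these genes, STX7 included, passed the threshold.

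Among the VAMP and SEC22 genes, 2 of 7 rose and none fell. SEC22B, the partner of STX5 in ER to Golgi fusion, had lowest, median and highest levels of 3.31, 5.29 and 6.28 in the oil period and 2.60, 4.98 and 6.24 in the control period, and rose by 0.46 ± 0.13 (adjusted p = 0.00795, 23 of 27 cows). Its relative SEC22A was dim, with levels of 2.58, 3.11 and 3.71 in the oil period and 2.29, 2.78 and 3.26 in the control period. It rose by 0.34 ± 0.07 (limma, adjusted p = 5.95e-04, 21 of 27 cows). SEC22B and STX5 had changes of opposite sign over all cows, and also with cow and prefix both in the fit given below. Their changes had the same sign within prefix 1 (1.65 and 0.25), where both control arrays stood apart. The signs were also the same within prefix 2 (-0.44 and -0.47) and in the fit on array number (1.13 and 0.39). VAMP3, a SNARE of recycling endosomes, was at 4.89, 5.39 and 7.26 in the oil period and 4.61, 5.13 and 6.99 in the control period, with a change of 0.22 ± 0.11 (adjusted p = 0.117), and passed without the 6 cows (0.24, adjusted p = 0.0191). VAMP8, a SNARE of regulated secretion in exocrine glands, VAMP7 of lysosomes, VAMP5 and the dim VAMP2 had changes from -0.13 to 0.04. SEC14L2, a lipid-binding protein that matched the symbol rule without being a coat or SNARE gene, was dim and changed by -0.06 ± 0.06, between 1.98 and 3.00 in the oil period and between 2.00 and 2.78 in the control period.

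Array name prefix and period nearly coincided, so each called gene was also fitted with the prefix. With cow and prefix both in the fit, the period effect rests on the 5 cows with both arrays under 1 prefix (cows 1 and 2 in prefix 1, the other 3 in prefix 2), and 15.4% of all probe sets and 8 of the 52 genes were called, 7 of them among the 15. COPB2 (0.47), TRAPPC2 (0.92), STX8 (0.67), SEC22A (0.53), TMED6 (0.54), TRAPPC2L (-0.76) and ARF5 (-0.67) remained past the threshold, and SEC24A (0.59, adjusted p = 0.0215) was added. ARF3 was -0.79 with an adjusted p of 0.0933, COPG1 -0.43 (0.164), SEC22B 0.56 (0.215), STX5 -0.29 (0.435), TMED1 -0.18 (0.321) and STX17 0.10 (0.669). SEC11A took the opposite sign at -0.15 (0.622). The control arrays of cows 1 and 2 both stood apart. On both, ARF5 was above the other period II arrays (3.10 and 3.28, others up to 2.62). STX8 was below them on both (6.24 and 6.32, others from 6.44). COPB2, SEC22A and SEC24A were below and TRAPPC2L above on cow 2 alone, while TRAPPC2 and TMED6 were within the range on both.

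Within prefix 1 the control side was only the 2 arrays apart of cows 1 and 2, and within prefix 2 the oil side was 3 arrays. Both of these fits left the cow out, so their values are unpaired differences and not within-cow changes. Prefix 1 alone called 6 of the 52 genes (5.36% of all probe sets) and prefix 2 alone only ARF3 (3.77%). COPB2 was higher by 0.49 within prefix 1 (adjusted p = 0.0372) and by 0.33 within prefix 2 (0.0919). TRAPPC2 was higher by 0.91 and 0.45, STX8 by 0.86 and 0.46, SEC22A by 0.70 and 0.10 and TMED6 by 0.39 and 0.25. TRAPPC2L was -0.89 and -0.42, ARF5 -1.26 and -0.25, ARF3 -0.35 and -1.15, and COPG1 -0.21 and -0.29. SEC22B changed sign between the prefixes (1.65 and -0.44), as did STX5 (0.25 and -0.47), SEC11A (-0.45 and 0.34), TMED1 (0.14 and -0.25) and STX17 (-0.0021 and 0.17). In a fit on the running array number that left the cow out, 7.67% of all probe sets were called. None of the 15 kept its call there in the same direction, and COPG1 was called in the other. All arrays numbered 1 to 28 were of period I and all from 29 to 55 of period II. That fit therefore hardly separates period from order, and its lost calls and changed signs cannot tell them apart. There COPB2 (0.26), TRAPPC2 (0.46), STX8 (0.42), SEC22A (0.34), SEC22B (1.13), TMED6 (0.53), ARF5 (-0.52) and TRAPPC2L (-0.36) stayed on the same side of 0.

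**Figure D3:**
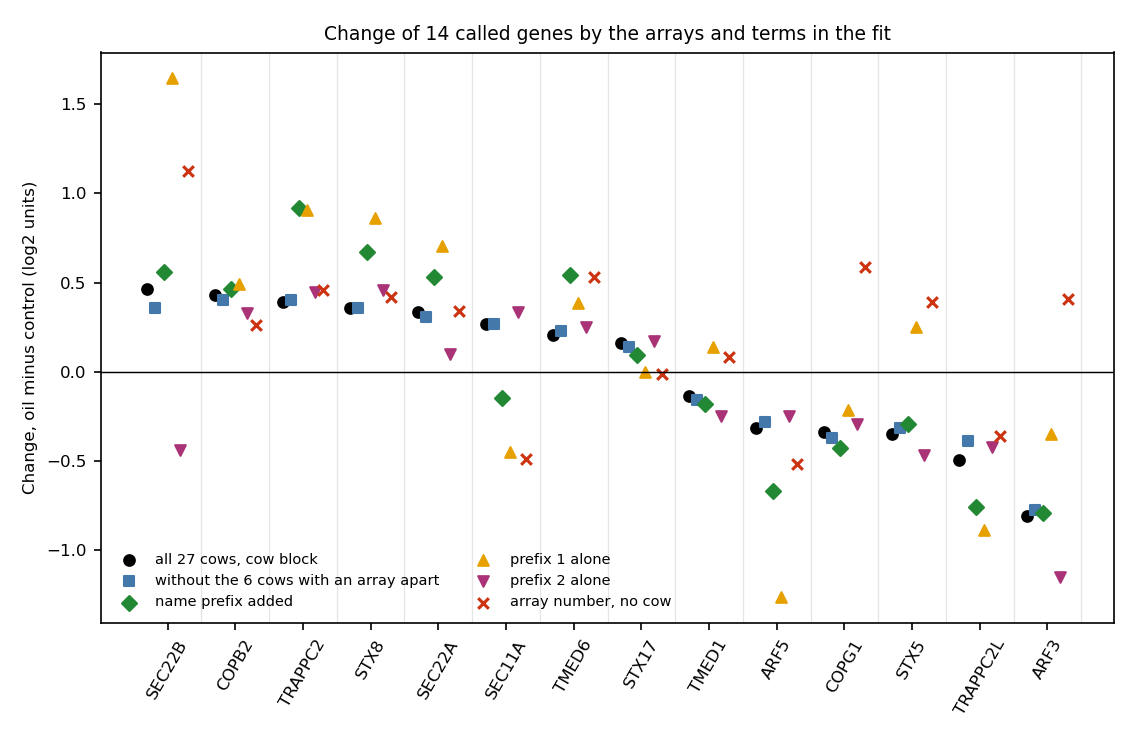
Change (log2 units, oil minus control, vertical axis) of 14 of the called genes, each with 6 symbols for the arrays and terms in the fit. COPB2 lies between 0.26 and 0.49 in all 6, whereas SEC22B runs from -0.44 to 1.65 and SEC11A, COPG1, STX5, TMED1, STX17 and ARF3 fall on both sides of 0.

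Each oil was then set against the later control diet of the same cows, 7 on rapeseed, soybean or mixed oil and 6 on linseed oil. COPB2 was higher in every cow on every oil: by 0.41 ± 0.09 on rapeseed oil (adjusted p = 0.0124), 0.51 ± 0.09 on soybean oil (6.55e-04), 0.42 ± 0.09 on linseed oil (0.0236) and 0.37 ± 0.09 on the mixture (0.0675, not past the threshold). Its means were 9.13 ± 0.16, 9.09 ± 0.10, 9.11 ± 0.13 and 9.16 ± 0.24 in the oil period in that order of oils, against 8.72 ± 0.19, 8.58 ± 0.20, 8.68 ± 0.19 and 8.79 ± 0.12 in the control period (SD). Without the 6 cows the rise was 0.37 on rapeseed oil (adjusted p = 0.061) and 0.42 on linseed oil (0.0926), so only the call on soybean oil remained (0.46).

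On soybean oil 6 of the 52 genes were called, 3 higher and 3 lower, where 13.5% of all probe sets were called (6.29% higher, 7.22% lower). Besides COPB2, SEC24A was higher by 0.55 ± 0.14 (adjusted p = 0.0124, 6 of 7 cows) and TRAPPC2 by 0.52 ± 0.17 (0.0380, 7 of 7 cows). ARF3 was lower by the widest margin, -1.16 ± 0.27 (adjusted p = 0.00535, 7 of 7 cows), followed by COPG1 (-0.68 ± 0.16, 6 of 7) and ARF5 (-0.56 ± 0.15, 7 of 7). SEC24A averaged 8.64 ± 0.23 on soybean oil and 8.10 ± 0.36 on the control diet, and ARF3 averaged 4.80 ± 0.42 on soybean oil and 5.96 ± 0.41 on the control diet (SD, n = 7). Among changes that did not pass, STX19, a syntaxin without a membrane anchor, was 0.67 ± 0.31, SEC22B 0.56 ± 0.27 and VAMP2, the main VAMP of synapses, -0.59 ± 0.25. Without the 6 cows TRAPPC2 on soybean oil was 0.41 (adjusted p = 0.115) and the other 5 calls remained.

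On rapeseed oil 3 genes were called, where 3.88% of all probe sets were (1.54% higher, 2.33% lower). Besides COPB2, ARF3 was lower by 0.97 (-0.97 ± 0.27, adjusted p = 0.0389) and STX5 by 0.75 (-0.75 ± 0.20, adjusted p = 0.0328), each in 6 of 7 cows. Cows 10 and 12 were on this oil and had arrays apart in period I; leaving out those animals, ARF3 was -0.55 (adjusted p = 0.185) and STX5 -0.45 (0.203), while SEC22A (0.62, adjusted p = 0.0230) and SEC22B (0.80, 0.0321) were called. COPG1 was -0.40 ± 0.16 and lower in 7 of 7 cows, and COPG2 was 0.81 ± 0.29, VAMP3 0.51 ± 0.21 and ARF2 0.48 ± 0.32, none past the threshold. With cows 10 and 12 left out, COPG2 was 0.24, VAMP3 0.10 and ARF2 0.18, while COPG1 was -0.39.

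On linseed oil COPB2 was the only gene called, where 1.29% of all probe sets were (0.403% higher, 0.89% lower). SEC22B was 0.74 ± 0.29 and higher in 6 of 6 cows, but 0.28 once cows 5 and 15 were left out, both with arrays apart. The others were TMED9 0.61 ± 0.24 (2.91 in cow 5, and 0.09 without cows 5 and 15), STX8 0.45 ± 0.18, TRAPPC2L -0.71 ± 0.23, ARF3 -0.64 ± 0.29 and STX5 -0.45 ± 0.21 (-0.73 without those cows), all without passing the test. On the mixture 0 of the 52 were called by limma (6 at an unadjusted p under 0.05), where 0.15% of all probe sets were (0.131% higher, 0.0187% lower). The widest changes there were STX8 (0.44 ± 0.17), TRAPPC2 (0.42 ± 0.17), COPB2 (0.37 ± 0.09), ARF3 (-0.45 ± 0.27), TRAPPC2L (-0.44 ± 0.21) and ARF5 (-0.36 ± 0.15, lower in 7 of 7 cows), which was -0.22 once cow 1 was left out.

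**Figure D4:**
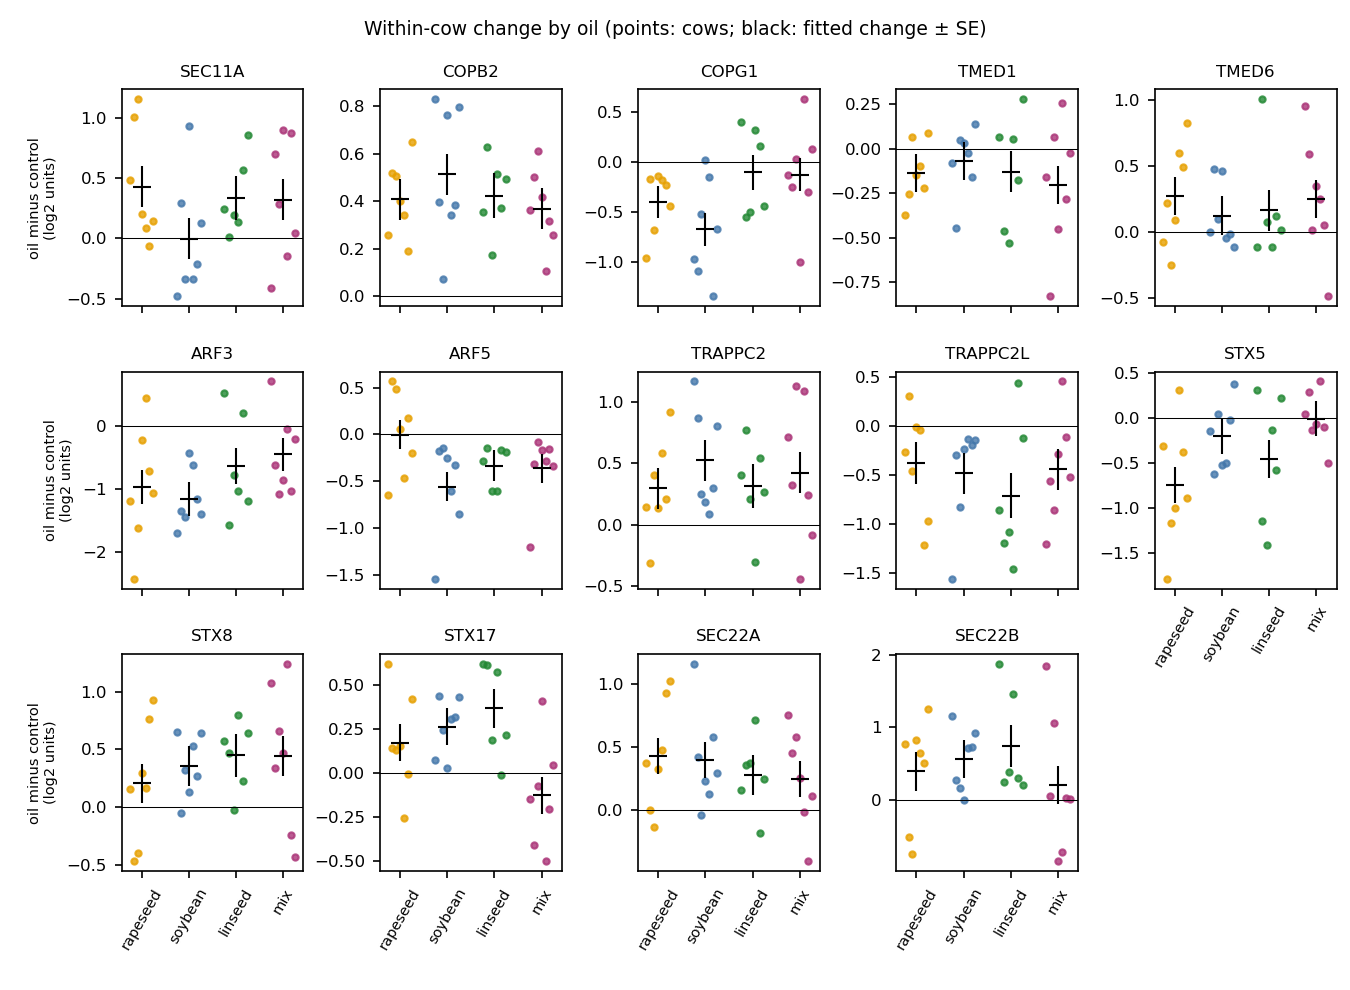
Within-cow change (log2 units, oil minus control, vertical axis) of 14 of the called genes on rapeseed, soybean, linseed or mixed oil. Points are cows and black bars the fitted change ± SE; COPB2 is above 0 in every cow, and STX17 averages 0.37 on linseed oil and -0.13 on the mixture.

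Whether the response differed between the oils was tested directly. Of the 52 genes 0 were called for the difference of the change between oils by limma's moderated F (2 at an unadjusted p under 0.05), as were 0 of all 10680 probe sets (0%, with 486 at an unadjusted p under 0.05). The smallest p was that of STX17, whose change was 0.17 on rapeseed, 0.26 on soybean, 0.37 on linseed and -0.13 on mixed oil (p = 0.0177, adjusted p = 0.948). SEC24A was 0.02, 0.55, 0.20 and 0.02 on the same oils (adjusted p = 0.948), TRAPPC6B, a core TRAPP subunit, 0.26, 0.23, -0.33 and 0.15, and STX5 -0.75, -0.20, -0.45 and -0.01. ARF3, called on 2 oils, was therefore not shown to respond differently among them (-0.97, -1.16, -0.64 and -0.45). In simulated data the test of a difference between oils recovered 16 probe sets changed 1.5-fold on soybean oil alone and 72 changed 2-fold. The comparison of periods recovered 94 and 98 of equally many, and that of diets in period I, described next, 37 and 79. So 0 calls do not show that the oils acted alike.

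The diets were also compared with each other within a period. In period I 0 of the 52 genes were called between the 4 oils (1 at an unadjusted p under 0.05, or 1.92%), and 0 of all probe sets (0%, with 277, or 2.59%, at an unadjusted p under 0.05). STX19 had the smallest p (0.0133, adjusted p above 0.999), with means of 5.31 on rapeseed, 5.95 on soybean, 5.29 on linseed and 5.87 on mixed oil, and its ranges overlapped (4.60 to 6.00, 5.37 to 6.35, 4.37 to 5.88 and 5.28 to 6.53). SEC16B was between 2.08 and 2.59 in mean, TMED5 between 5.00 and 5.24 and SEC14L2 between 2.33 and 2.53. In period II, when all cows had the control diet, 0 of the 52 were called between the earlier oils (4 at an unadjusted p under 0.05, or 7.69%) and 0 of all probe sets (397, or 3.72%, at an unadjusted p under 0.05). STX5 averaged 5.22 in cows that had received rapeseed oil, 4.81 after soybean, 4.78 after linseed and 4.65 after mixed oil (adjusted p = 0.976).

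On the 7 arrays apart several of these genes stood outside the range of all other arrays of the same period. Since the arrays were set apart by their correlation over all probe sets, these included, this is a description without a test. SEC11A and SEC11C, the alternative catalytic subunits of signal peptidase, stood on opposite sides. SEC11C was at 9.06, 8.37 and 7.71 in period I of cows 5, 10 and 12, below the other arrays of that period (9.11 to 10.2). It was at 8.42, 9.34, 8.93 and 7.90 in period II of cows 1, 2, 5 and 15, below the others (9.39 to 10.1). SEC11A was above the others on all 7, between 8.77 and 8.86 against 7.31 to 8.50 in period I, and between 8.26 and 8.61 against 6.63 to 8.07 in period II.

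The gamma and zeta subunits of the COPI coat differed there too. COPG2 was above the others on all 7 arrays, between 4.46 and 5.78 in period I (others 2.25 to 4.32) and between 3.79 and 5.06 in period II (others 2.18 to 3.63), whereas COPG1 lay within the range of the others on 6 of 7. COPZ1 was below the others on 6 of 7, with 4.08 in period II of cow 5 (others 6.36 to 7.12), and so was COPA, on 6 of 7. STX7 of late endosomes was above on all 7, between 9.35 and 10.6 (others 6.66 to 9.10 over both periods). VAMP3 was above on 6 and VAMP5, a VAMP of muscle, on 4, while VAMP2 and TRAPPC9 were below on 6 each. Among called genes besides SEC11A, ARF5 was above on 5. STX5, STX8 and TMED1 were below on 5 each, ARF3 and SEC22B on 4 each and SEC22A on 3. TRAPPC2L was above on 3, COPB2 and STX17 were below on 1 each, and TRAPPC2 and TMED6 were outside on 0. Shares of all probe sets at these counts were not taken. In all, 3 of the 52 genes were above and 1 below on all 7 arrays, where 2.73% and 2.98% of all probe sets were.

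The list means of markers moved on the same arrays. The 8 secretory epithelium genes averaged 13.0, 11.5 and 11.0 log2 units in period I of cows 5, 10 and 12 (others 13.2 to 13.5), and 12.6, 13.2, 12.1 and 11.0 in period II of cows 1, 2, 5 and 15 (others 13.2 to 13.5). The 8 fibroblast genes averaged 8.85 to 10.1 on the 3 arrays of period I (others 6.93 to 9.18) and 9.06 to 10.2 on the 4 of period II (others 7.34 to 8.77). Of the other lists, the 8 luminal genes averaged 7.14 to 7.62 on those of period I (others 5.89 to 7.48) and 7.83 to 8.26 on those of period II (others 6.05 to 7.36). The 5 adipocyte genes averaged 3.70, 3.33 and 3.11 on those of period I (others 3.69 to 4.19) and 3.32, 3.99, 3.47 and 3.25 on those of period II (others 3.52 to 4.07), below the others on 5 of 7. The 7 endothelial genes averaged 3.68, 3.33 and 3.51 in period I (others 3.60 to 4.55) and 3.54, 4.57, 3.71 and 4.54 in period II (others 4.13 to 5.24), below the others on 4 of 7. The 3 neutrophil genes averaged 6.00, 4.89 and 2.83 in period I (others 2.24 to 3.81). In period II they averaged 4.89, 2.93, 5.78 and 3.33 (others 2.06 to 7.21). The macrophage list lay within the range of the others. The myoepithelial list was above it in period II of cow 2 (8.69, others up to 8.38). The lymphocyte list was above it in period I of cow 10 (3.39, others up to 3.23) and period II of cow 15 (3.95, others up to 3.47). The part of these cell types in the values was not tested.

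**Figure D5:**
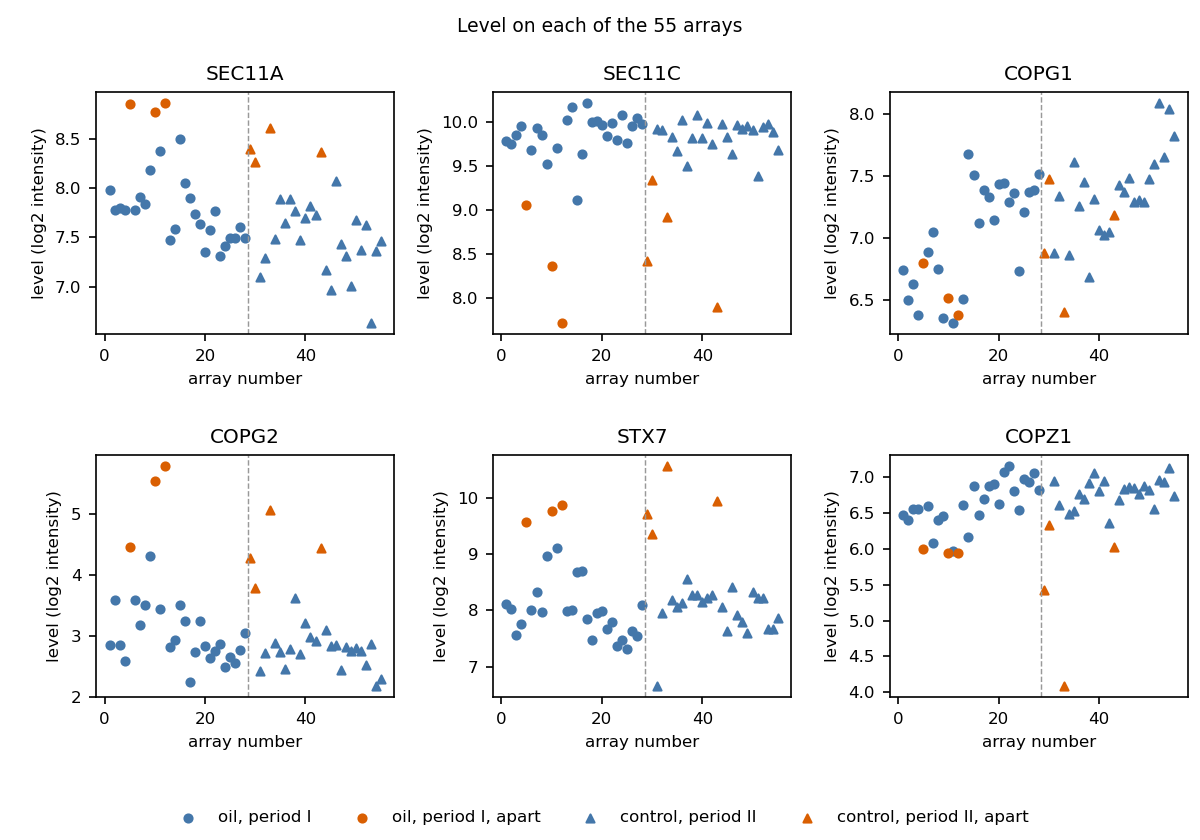
Level (log2 intensity, vertical axis) of 6 genes on each of the 55 arrays in order of array number (horizontal axis), circles for the oil period and triangles for the control period, orange for the 7 arrays apart. SEC11C and COPZ1 are low and SEC11A, COPG2 and STX7 high on the orange arrays, and COPG1 has a median of 6.52 on arrays 1 to 13, 7.37 on 14 to 28, 7.07 on 29 to 41 and 7.45 on 42 to 55.

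Marker lists were also compared between the periods, where 34.4% of all probe sets were called (18.8% higher, 15.6% lower). The share called was 62.5% of fibroblast, 60% of adipocyte, 57.1% of endothelial and 50% of luminal genes. It was 40% of lymphocyte, 33.3% of macrophage and 16.7% of myoepithelial genes. No list had more than 8 measured genes. In the oil period 0 of 8 secretory epithelium genes were called (median change -0.05, list mean 11.0 to 13.5 in both periods), 4 of 8 luminal genes fell (median -0.48, list mean 5.89 to 7.62 in the oil period and 6.05 to 8.26 in the control period), 4 of 7 endothelial genes fell (-0.34, 3.33 to 4.55 and 3.54 to 5.24) and 5 of 8 fibroblast genes fell (-0.45, 6.93 to 10.1 and 7.34 to 10.2). Of 6 myoepithelial genes 1 fell (-0.17, 6.75 to 8.19 and 6.71 to 8.69), of 6 macrophage genes 2 fell (-0.34, 3.65 to 5.38 and 4.17 to 6.09), of 5 adipocyte genes 2 rose and 1 fell (0.26, 3.11 to 4.19 and 3.25 to 4.07), of 5 lymphocyte genes 1 rose and 1 fell (0.06, 2.32 to 3.39 and 2.36 to 3.95), and of 3 neutrophil genes 0 were called (-0.19, 2.24 to 6.00 and 2.06 to 7.21). In the fit on array number the called endothelial genes CDH5 (0.39), ENG (1.14) and TIE1 (0.11) and the luminal gene CLDN3 (0.29) took the opposite sign, and the other called markers of these lists did not. The part of the marker lists in the trafficking genes was not tested.

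A wider list of the secretory route, without the 52 genes, had 58 measured members of 95. In the oil period 15 rose and 13 fell, or 48.3%, against 34.4% of all probe sets, with a median change of -0.02. On the arrays apart the list mean was 5.89, 5.70 and 5.72 in period I of cows 5, 10 and 12 (others 5.93 to 6.28). In period II of cows 1, 2, 5 and 15 it was 5.73, 6.02, 5.69 and 5.85 (others 6.01 to 6.26). In the signal recognition and channel machinery SRP14 (0.33 ± 0.06), SRP19 (0.35 ± 0.07), the signal peptidase subunit SPCS1 (0.29 ± 0.07) and the translocon-associated SSR4 (0.26 ± 0.06) rose, while the receptor subunit SRPRA (-0.62 ± 0.19) and SSR2 (-0.20 ± 0.06) fell. At the ER exit SAR1A, the GTPase that starts the COPII coat, rose by 0.62 ± 0.12 (23 of 27 cows). The cargo receptor ERGIC2 rose by 0.49 ± 0.06 (26 of 27 cows), while ERGIC3 (-0.69 ± 0.19), SURF4 (-0.58 ± 0.12) and the retrieval receptor KDELR1 (-0.47 ± 0.09) fell.

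Beyond the Golgi, the clathrin heavy chain CLTC rose by 0.26 ± 0.04 (25 of 27 cows), and the light chains CLTA (-0.28 ± 0.07) and CLTB (-0.40 ± 0.10) fell, so the clathrin coat also had members of both signs. GOSR2, a further SNARE of ER to Golgi fusion, fell by 0.19 ± 0.06 and was dim, and the endosomal SNARE VTI1A rose by 0.48 ± 0.11. In the fit on array number SURF4 (0.68), ERGIC3 (0.59), SRPRA (1.21), SSR2 (0.07), CLTB (0.50) and SRP19 (-0.01) took the opposite sign, whereas SAR1A (1.23), ERGIC2 (0.45), CLTC (0.28) and CLTA (-0.26) did not.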

How the data were processed

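Total RNA (2 micrograms) of each biopsy was labelled and hybridised to 1 Affymetrix array. Each deposited value is a linear intensity of a probe set, and log2 was taken here. RMA and GCRMA are named, with neither version nor role, per the submitters' processing notes. Of 11495 probe sets 112 controls were dropped and 703 with identical values were merged, which left 10680; COPB1 and STX7 each share their values with unnamed predicted accessions. RefSeq accessions were paired with symbols through a RefSeq gene table (ARS-UCD2.0), which named 6649 tested probe sets. Each of the 52 genes had 1 probe set. The files give no detection calls, so 16 genes with a mean under 4 log2 units, 6 of them called, are described as dim.

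Arrays were grouped by cow, period and diet from the labels. Limma 3.58.1 in R 4.3.3 was fitted on all 10680 probe sets with the cow as a fixed block for period I minus period II, with a period effect per oil, and as a moderated F for differences between oils and between diets within a period. P-values were adjusted by Benjamini-Hochberg over all probe sets, and a gene was called at an adjusted p under 0.05, two-sided. Arrays of 1 cow are paired, being from 1 animal (median correlation of deviations 0.199, over 0.1 in 18 of 27 cows). Levels are given as lowest, median and highest over the 27 cows. The number of arrays limits the precision. The fits were tested on simulated data with known changes.

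The genes and lists were chosen with earlier results of these data known. Levels are given for up to 3 genes with the smallest p in each role, and also named are those with the smallest p between oils and the widest change on each oil. Alternatives were the cow as no block or a random block, the array name prefix, array number, leaving out the 6 cows with an array apart, other scaling, a filter on dim probe sets and an added constant of 16. The counts include 1 gene whose own values are not reported here. No promoter or protein sequence was used here.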

Additional observations from a re-analysis of the deposited data

Results flagged for a closer look

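Within-cow changes of 31 named genes on each of the 4 oils were screened for a single cow far from the rest by Dixon's test, in 124 groups, of which chance flags about 1 in 20. Of these, 8 groups had such a cow. TMED9 on linseed oil was 2.91 in cow 5, with the other cows between -0.10 and 0.41; both arrays of cow 5 stood apart. COPG2 was -1.41 on the mixture in cow 1, with the others between 0.01 and 0.73, and ARF5 was -1.2 in the same cow, with the others between -0.33 and -0.09; the period II array of cow 1 stood apart. SEC13 was -0.9 on the mixture in cow 11 (others -0.15 to 0.14) and 0.59 on soybean oil in cow 17 (others -0.55 to -0.11). SEC61G was -0.13 on the mixture in cow 11 (others 0.17 to 0.37). TMED6 was 1.01 on linseed oil in cow 7 (others -0.11 to 0.13), and TMED9 was -0.57 on soybean oil in cow 24 (others -0.15 to 0.11).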

How the results depend on the processing

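The counts of 9 genes higher and 6 lower in the oil period became 4 and 2 within array name prefix 1, 0 and 1 within prefix 2, 14 and 5 with each array centred on its median, and 5 and 4 among probe sets with a mean of 4 log2 units or more, where 36 of the 52 genes were tested. The lower genes numbered 2 with the prefix added to the cow block and 1 with array number as a covariate. Centring raised the change of every probe set alike, by the shift given above. With no replicate block the paired comparison gave 6 higher and 5 lower; SEC11A, SEC22B, TMED1 and TMED6 were not called. On rapeseed oil the counts of 1 higher and 2 lower became 2 and 0 without the 6 cows, with 0 lower also under centring and with no replicate block. On linseed oil the 1 gene higher became 0 without the 6 cows and with no replicate block. The share of all probe sets called was not taken under centring, the filter on the mean, no replicate block or the alternatives for single oils. Whether these changed counts concern the 52 genes or the whole array was therefore not tested.

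Values that took the opposite sign in a called result were, in the fit on array number, SEC11A (-0.49), COPG1 (0.59), COPZ1 (0.86), TMED1 (0.08), ARF3 (0.41), TRAPPC6A (0.54), STX5 (0.39) and STX17 (-0.01); within prefix 1, SEC11A (-0.45), TMED1 (0.14), STX5 (0.25) and STX17 (-0.0021); within prefix 2, SEC22B (-0.44); and with the prefix added, SEC11A (-0.15). The cause was not tested. COPB2, TRAPPC2, TRAPPC2L, STX8, ARF5, SEC22A and TMED6 had the same sign in each alternative in which they were tested. Calls were kept in 9 of 11 alternatives for COPB2, TRAPPC2, TRAPPC2L and STX8. They were kept in 8 of 10 for ARF5, 7 of 10 for SEC22A and only 4 of 10 for TMED6. The difference between oils and the comparisons of diets within a period had 0 calls under each alternative run. Taking the lowest row of a gene with several rows changed nothing, because each of the 52 genes had 1.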
